A study of Mus musculus with 12 samples.

Results

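The livers compared here expressed 44 genes of the endoplasmic reticulum (ER) that fold, check, degrade and move secreted proteins, and most of these genes read lower 6 hours after CDDO-Im than after vehicle, in wild type and in Nrf2 null mice. They were grouped by function: 10 chaperones and co-chaperones of the HSP70 and HSP90 kind with small stress-induced luminal proteins, 2 lectin chaperones, 8 disulfide isomerases and thioredoxin-fold proteins, 3 prolyl isomerases, 4 stress sensors and regulators, 7 genes of ER-associated degradation, 8 of translocation and 2 of the COPII export coat. A probe set counted for a gene if its annotation named that gene alone, and where several did, the one with the highest mean over the arrays was used. All 44 genes were found, among 18193 genes on the array.

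The study read liver RNA of male mice on 12 one-colour Affymetrix arrays, with 3 arrays in each of 4 groups: wild type with vehicle, wild type with CDDO-Im, Nrf2 null with vehicle and Nrf2 null with CDDO-Im. CDDO-Im is a synthetic triterpenoid and a known activator of the transcription factor Nrf2. It was given by gavage at 30 uM/kg, as the labels write the dose, and vehicle by the same route, 6 hours before. The labels give no strain, age or description of the null allele, and do not say that each array came from its own mouse, so p-values cover the spread among these arrays, which may be technical. Vehicle titles share a bracketed digit that is missing from the CDDO-Im titles, and what it stands for cannot be told apart from the compound.

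Proteins bound for secretion enter the ER through the Sec61 channel, lose their signal peptide, gain sugars and disulfide bonds, and fold with the help of chaperones, chiefly BiP (Hspa5). Proteins that fail are passed back to the cytosol for degradation. The unfolded protein response matches these genes to the load: Ire1 (Ern1) splices Xbp1 mRNA, Atf6 is cut to release a transcription factor, and Perk (Eif2ak3) slows translation. The liver makes most plasma proteins and is rich in this machinery.

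Because these genes are known to share stress elements in their promoters, 3 motifs were searched in RefSeq windows of 300 bases (250 before and 50 after an annotated start, GRCm38.p6). The table held 44 windows for 35 of the 44 genes; Hyou1, Hspa13, Manf, Erp29, Atf6, Derl1, Sec61a1, Ssr2 and Spcs3 had no match. The ER stress response element (ERSE, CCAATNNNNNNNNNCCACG on either strand), which is known to bind NF-Y together with Atf6 or Xbp1, was found in 9 genes, at 10 sites. It was in 20.5% of the genes' windows and in 0.119% of all 32851 windows of that length in the table. ERSE-II (ATTGGNCCACG, either strand) was in Dnajb11 and Herpud1, against 0.0365% of all windows. The core of the unfolded protein response element (TGACGTG, either strand), which Xbp1 is known to bind, was in 5 genes (Hspa5, Txndc5, Txndc11, Fkbp11 and Sec24d), against 2.01% of all windows. Of the genes' windows, 4.55% held ERSE-II and 11.4% the core of the unfolded protein response element. No match overlapped another. The 10 ERSE sites are printed from the CCAAT end, with both ends in capitals, to show that the ends are fixed while the 9 bases between them differ. Those of Calr, Creld2 and Derl3 and the nearer one of Hsp90b1 run opposite to the gene.
Hspa5 (chr2:34772025-34772043): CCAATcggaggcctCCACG
Hsp90b1, farther from the start (chr10:86705638-86705656): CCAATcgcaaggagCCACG
Hsp90b1, nearer the start (chr10:86705533-86705551): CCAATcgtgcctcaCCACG
Dnajc3 (chr14:118937827-118937845): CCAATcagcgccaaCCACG
Creld2 (chr15:88819520-88819538): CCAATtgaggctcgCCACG
Calr (chr8:84847075-84847093): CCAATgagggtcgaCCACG
Canx (chr11:50325800-50325818): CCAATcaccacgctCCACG
Pdia6 (chr12:17266491-17266509): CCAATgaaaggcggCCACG
Syvn1 (chr19:6046532-6046550): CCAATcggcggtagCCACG
Derl3 (chr10:75893242-75893260): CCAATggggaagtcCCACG

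For 5 genes the 200 bases before the start are given whole, on the strand of the gene, with motif matches in capitals. They were chosen after their values were seen. Hspa5 (chr2:34771890-34772089) is the central chaperone, Creld2 (chr15:88819446-88819645) and Derl3 (chr10:75893198-75893397) had large differences, Herpud1 (chr8:94386229-94386428) read higher with the compound, and Sec61b (chr4:47474461-47474660) fell without holding a match. All 5 lie on the plus strand.
Hspa5: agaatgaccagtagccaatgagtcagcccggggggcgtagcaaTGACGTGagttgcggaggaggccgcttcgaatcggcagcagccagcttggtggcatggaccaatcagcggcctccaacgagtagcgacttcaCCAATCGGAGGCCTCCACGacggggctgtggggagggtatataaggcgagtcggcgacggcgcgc
Creld2: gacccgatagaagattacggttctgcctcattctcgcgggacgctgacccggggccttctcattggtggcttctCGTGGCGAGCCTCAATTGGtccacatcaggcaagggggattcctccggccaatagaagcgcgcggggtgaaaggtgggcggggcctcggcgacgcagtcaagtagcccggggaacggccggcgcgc
Derl3: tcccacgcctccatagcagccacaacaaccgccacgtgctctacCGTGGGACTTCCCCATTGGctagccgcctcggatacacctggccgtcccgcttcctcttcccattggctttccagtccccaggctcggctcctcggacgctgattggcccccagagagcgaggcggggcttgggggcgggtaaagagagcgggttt
Herpud1: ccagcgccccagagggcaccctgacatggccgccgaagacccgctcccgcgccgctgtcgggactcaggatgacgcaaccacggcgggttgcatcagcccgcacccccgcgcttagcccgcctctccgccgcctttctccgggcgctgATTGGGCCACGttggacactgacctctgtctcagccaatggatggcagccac
Sec61b: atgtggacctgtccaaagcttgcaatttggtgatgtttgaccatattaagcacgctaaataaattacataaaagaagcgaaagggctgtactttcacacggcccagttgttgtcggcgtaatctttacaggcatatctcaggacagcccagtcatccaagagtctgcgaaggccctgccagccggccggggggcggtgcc

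**Figure D1:**
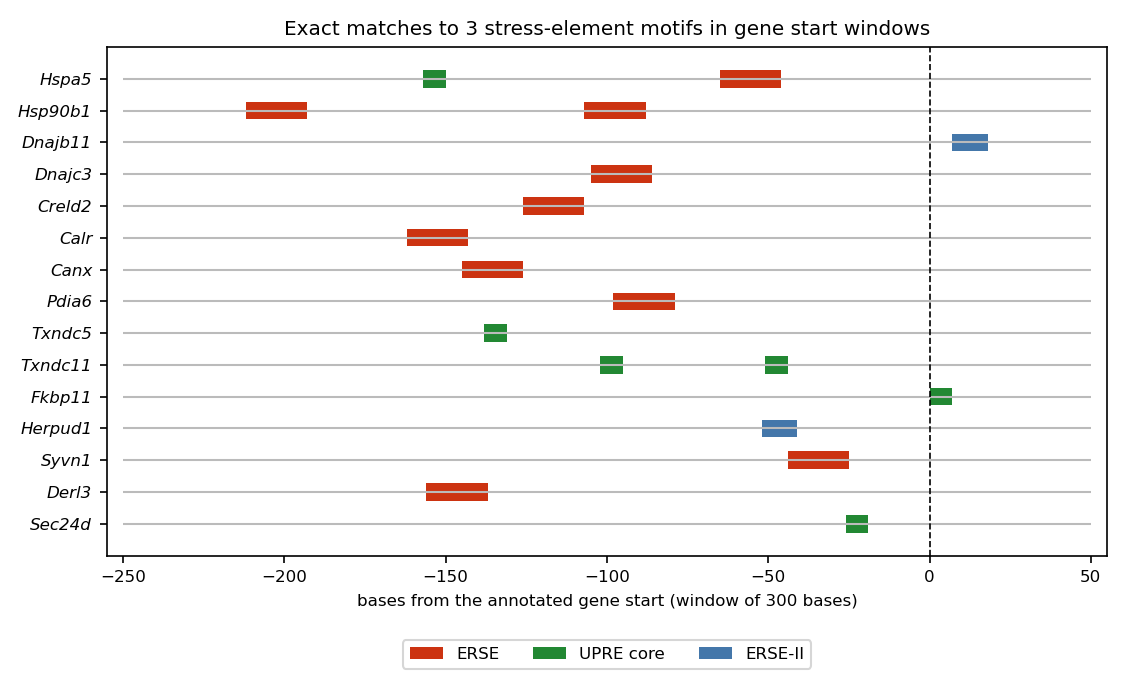
Exact matches to ERSE, ERSE-II and the UPRE core in the windows of the 15 genes that hold one; the horizontal axis gives bases from the annotated start and the dashed line marks it. The ERSE matches lie before the start in all 9 genes, at most 212 bases away.

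The labels were checked first. Nfe2l2, which encodes Nrf2, read 8.37 to 9.14 on the wild type arrays and 4.44 to 4.96 on the Nrf2 null arrays. Array medians of the log2 values ran from 5.77 to 5.83. Hepatocyte markers (9 of 10 measured) summed to between 113.1 and 116.4 log2 units on every array, and those of plasma and B cells (9 of 10) to between 52.4 and 55.8. Single markers did move with CDDO-Im: G6pc of the hepatocyte list rose in Nrf2 null (2.01), Sdc1 of the plasma cell list, which hepatocytes also express, fell in both genotypes (-0.84 in wild type and -0.69 in Nrf2 null), S100a8 (-1.27) and S100a9 (-0.95) of 7 neutrophil markers fell in Nrf2 null, and of 8 endothelial markers Oit3 rose in both (0.51 and 0.63) and Lyve1 in wild type (2.26). Of 7 Kupffer cell markers 0 were called, but 7 read higher with CDDO-Im in wild type and 6 in Nrf2 null; their sum ran from 52.6 to 58.5 in wild type with vehicle, 55.3 to 60.2 with CDDO-Im, 50.1 to 55.2 in Nrf2 null with vehicle and 55 to 55.7 with CDDO-Im. Unadjusted, 1 and 3 of the 7 had a p under 0.05 (limma). The part of these cells in the results was not tested. In bulk RNA, fewer cells of a type and less RNA per cell cannot be told apart.

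One array stood apart. Wild type vehicle replicate 3 was below both other wild type vehicle arrays for 44 of the 44 genes, nearer to the wild type CDDO-Im mean than to the mean of its fellows for 42, and within or below the CDDO-Im range for 14. The median of the genes' deviations from their own means was -0.22 on it, 0.61 and 0.68 on the other wild type vehicle arrays and -0.42 to -0.40 on the wild type CDDO-Im arrays. Without Nrf2 the same median was 0.52 to 0.59 with vehicle and -0.63 to -0.38 with CDDO-Im. Nqo1, a Nrf2 target that CDDO-Im is known to raise, was not raised on that array: it read 5.19 there, 5.12 and 5.06 on its fellows and 7.15 to 7.26 with CDDO-Im. The same array carried pancreatic acinar transcripts: the median deviation of the markers (10 of 13 measured) was 3.39 there, 1.78 on Nrf2 null vehicle replicate 2 and -0.66 to -0.37 on the other arrays. Their sum ran from 64 to 103.7 in wild type with vehicle, 63.9 to 65.9 with CDDO-Im, 65.3 to 88.5 in Nrf2 null with vehicle and 65.7 to 66.9 with CDDO-Im. Without the 2 arrays that carried them, 39 of the 44 genes were called in wild type and 35 in Nrf2 null, against 16 and 30 with all arrays. These counts are of the 44 genes alone, and wild type vehicle replicate 3 is among the arrays left out. They do not show how much of the change is particular to the 44. Calls over all genes changed with the arrays used as well. Without wild type vehicle replicate 3 alone, the share of all genes that fell went from 0.846% to 4.84% in wild type. In Nrf2 null it went from 2.32% to 3.93%. For most of the genes described, the wild type difference is also given without wild type vehicle replicate 3. That array was singled out on the values of these same genes. It was the lowest of its group for all 44, so leaving it out lowers every wild type difference. Those fits rest on wild type vehicle replicates 1 and 2, and their p-values do not allow for the choice. They describe how far the results hang on that array and are not separate evidence of a fall.

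**Figure D2:**
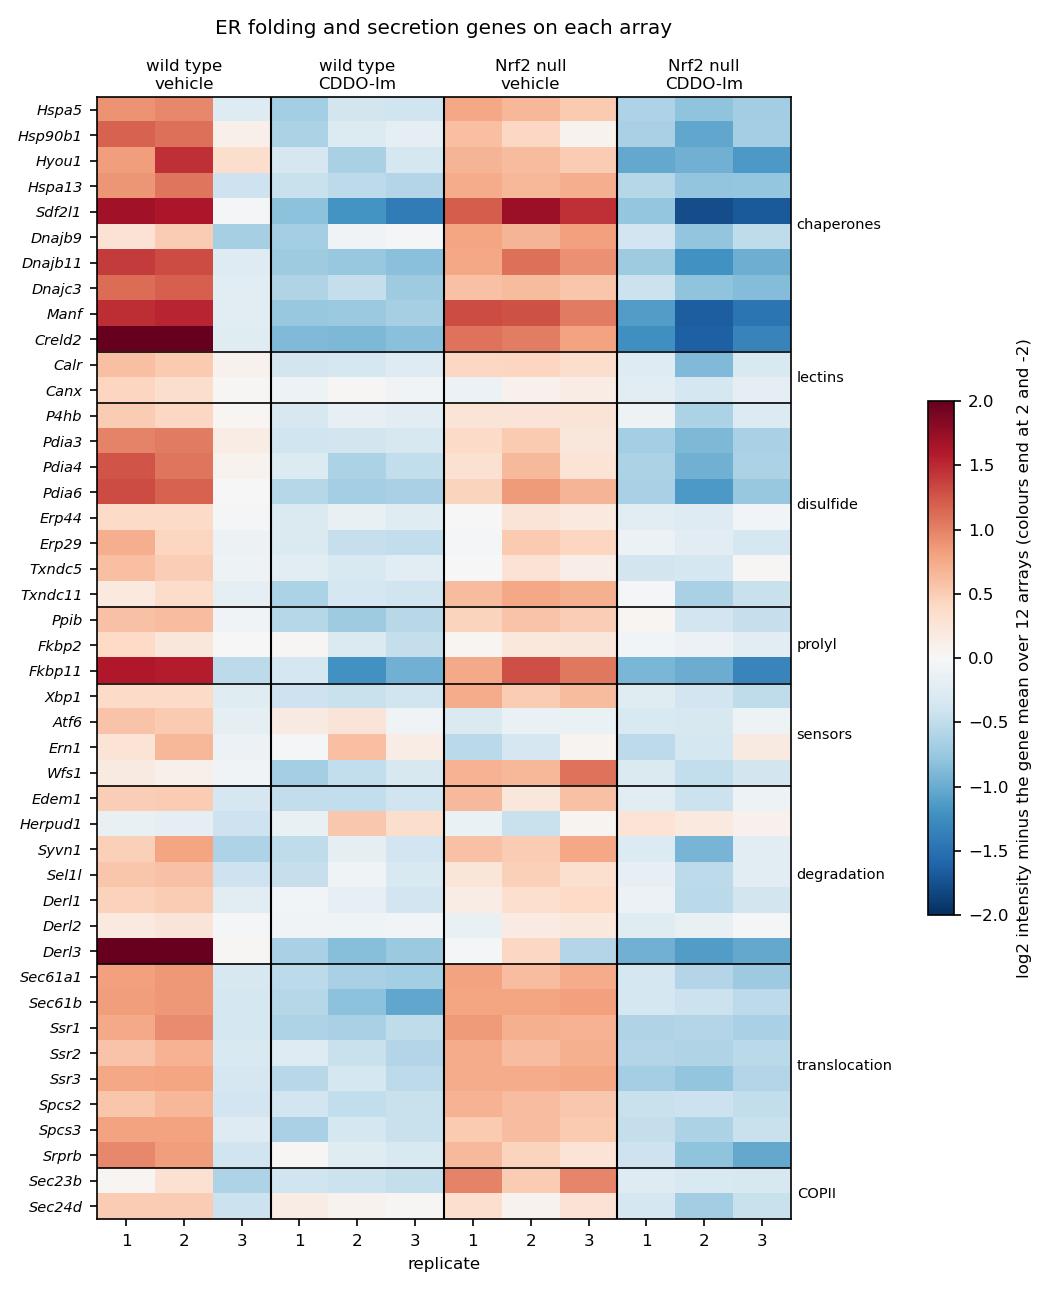
Each row is 1 of the 44 genes, grouped by role, and each column 1 of the 12 arrays. Colour gives log2 intensity minus the mean of that gene over the arrays; red is higher, blue lower, and values past 2 take the end colour. Wild type vehicle replicate 3 has a median of -0.22, between its fellows (0.61 and 0.68) and the CDDO-Im arrays.

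In wild type livers 16 of the 44 genes fell with CDDO-Im and 0 rose, at an adjusted p under 0.05 (limma, Benjamini-Hochberg over all genes tested). Of all genes 0.846% fell and 0.978% rose by the same call. The median difference of the 44 was -0.73 on the log2 scale, against 0.01 over all genes, and the falls that passed were from 1.48-fold to 6.01-fold. All 3 CDDO-Im arrays lay below all 3 vehicle arrays for 30 of the 44, against 8.18% of all genes. Without vehicle replicate 3 the count that fell was 41, where 4.84% of all genes fell, and the median was -1.05. Ern1, Herpud1 and Derl2 did not pass. That array was left out after these genes were seen to be low on it, so this count is not independent of the choice. The count that fell was 1 without vehicle replicate 1, 1 without vehicle replicate 2, and 7, 1 and 2 without CDDO-Im replicates 1, 2 and 3, and Hyou1 fell whichever array was left out. Herpud1 rose without CDDO-Im replicate 1. It was 7, 7 and 9 without Nrf2 null vehicle replicates 1, 2 and 3, and 9 and 7 without Nrf2 null CDDO-Im replicates 2 and 3, since all 4 groups share 1 estimate of the spread.

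In Nrf2 null livers 30 of the 44 fell and 0 rose, where 2.32% of all genes fell and 3.58% rose. The median was -1.11, against 0 over all genes, and the falls that passed ran from 1.51-fold to 7.28-fold. The groups did not overlap, with CDDO-Im below, for 39 of the 44, against 11.4% of all genes. Hyou1, Sdf2l1, Manf, Txndc11, Xbp1, Wfs1, Ssr2 and Ssr3 fell whichever of the 12 arrays was left out. The count was 12 and 14 without Nrf2 null vehicle replicates 1 and 2, 12 and 8 without Nrf2 null CDDO-Im replicates 2 and 3, and 37 without wild type vehicle replicate 3, where Erp44, Erp29, Edem1, Sel1l, Derl1, Derl3 and Sec24d passed as well and 3.93% of all genes fell.

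By the threshold, 15 genes fell in both genotypes, 15 in Nrf2 null alone, 1 (Derl3) in wild type alone and 13 in neither. Whether the 2 effects differed was tested by the interaction, which was called for 0 of the 44 (3 at an unadjusted p under 0.05) and for 0.137% of all genes.

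**Figure D3:**
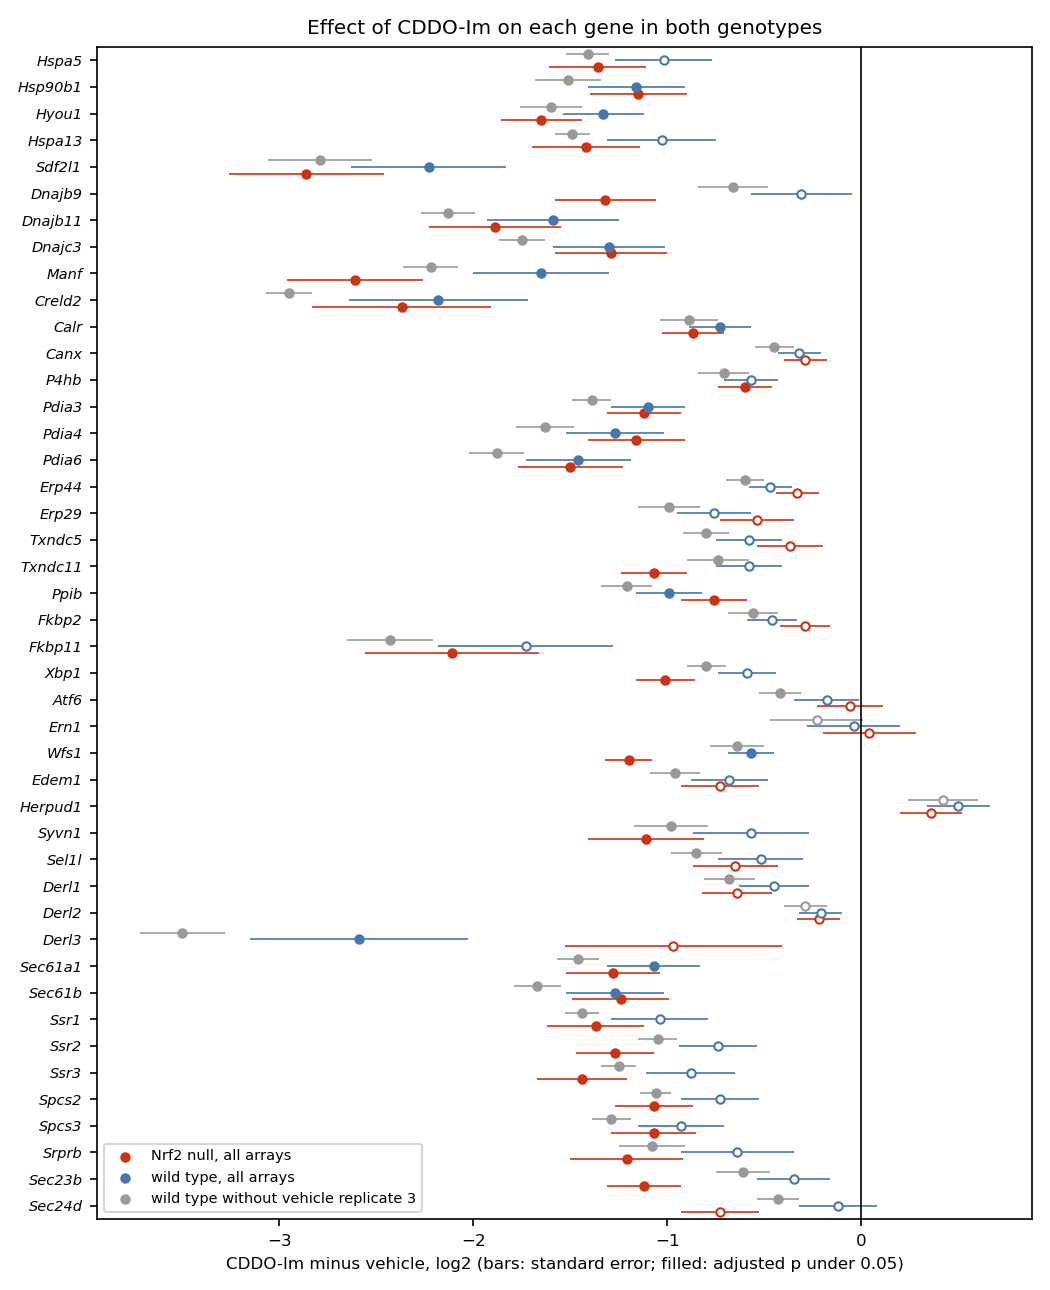
Difference between CDDO-Im and vehicle for each of the 44 genes on the log2 scale, with standard errors, in Nrf2 null (red), wild type (blue) and wild type without vehicle replicate 3 (grey). Filled points passed an adjusted p of 0.05; the grey point lies left of the blue one for all 44 genes, as that array was the lowest of its group for each, and Herpud1 lies right of 0 in all 3 fits.

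The chaperones and co-chaperones included the largest fall in Nrf2 null, that of Sdf2l1. All 10 fell in Nrf2 null livers, with a median of -1.54, and 7 of 10 in wild type, with a median of -1.31; without vehicle replicate 3 all 10 fell in wild type too, with a median of -1.68. Hspa5 (Entrez Gene 14828) encodes BiP, the HSP70 of the ER lumen. It read 12.86, 12.92 and 11.71 in wild type with vehicle and 11.29, 11.59 and 11.56 with CDDO-Im. Without Nrf2, Hspa5 read 12.74, 12.62 and 12.49 with vehicle and 11.35, 11.16 and 11.26 with CDDO-Im. The groups did not overlap in either genotype, and the third wild type vehicle array lay next to the treated ones. Hspa5 fell in Nrf2 null (-1.36 ± 0.25, SE; 2.56-fold, adjusted p = 0.0126, limma), and in wild type its difference was -1.02 ± 0.25 (adjusted p = 0.0637) with all arrays and -1.41 ± 0.11 (adjusted p = 9.56e-06) without vehicle replicate 3. A second probe set of the gene differed by -1.66 in Nrf2 null, and the dimmest one by -0.34.

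Hyou1 (Entrez Gene 12282), the large HSP110 relative that exchanges nucleotide on BiP, read 11.47, 12.10 and 10.98 in wild type with vehicle and 10.30, 9.99 and 10.28 with CDDO-Im. Without Nrf2, Hyou1 read 11.32, 11.27 and 11.14 and then 9.61, 9.67 and 9.49. No treated array reached a vehicle array in either genotype. Hyou1 fell in wild type (-1.33 ± 0.21, 2.51-fold, adjusted p = 0.00777; -1.60 ± 0.16, adjusted p = 6.67e-05, without vehicle replicate 3) and in Nrf2 null (-1.65 ± 0.21, 3.14-fold, adjusted p = 0.00433).

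Sdf2l1 (Entrez Gene 64136), a small partner of the BiP complexes, fell most of all in Nrf2 null. It read 10.59, 10.52 and 8.88 with vehicle and 8.09, 7.71 and 7.50 with CDDO-Im in wild type. Without Nrf2, Sdf2l1 read 10.11, 10.61 and 10.37 with vehicle and 8.14, 7.13 and 7.22 with CDDO-Im. Every treated array lay below every vehicle array of its genotype. The falls were -2.23 ± 0.40 (4.69-fold, adjusted p = 0.0164; -2.79 ± 0.27, adjusted p = 5.18e-05, without vehicle replicate 3) in wild type and -2.86 ± 0.40 (7.28-fold, adjusted p = 0.00629) in Nrf2 null.

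Manf (Entrez Gene 74840), a secreted and ER-retained protein induced by stress, read 11.61, 11.66 and 9.92 in wild type with vehicle and 9.38, 9.40 and 9.48 with CDDO-Im. Without Nrf2, Manf read 11.44, 11.41 and 11.18 and then 9.03, 8.50 and 8.68. The treated arrays were again the lower ones in both genotypes, and the third wild type vehicle array lay between. Manf fell in wild type (-1.65 ± 0.35, adjusted p = 0.0402; -2.22 ± 0.14, adjusted p = 1.61e-06, without vehicle replicate 3) and in Nrf2 null (-2.61 ± 0.35, adjusted p = 0.0054). Creld2 (Entrez Gene 76737), a stress-induced protein of the ER lumen, is added here after its values were seen. It read 11.35, 11.48 and 9.10 with vehicle and 8.45, 8.44 and 8.50 with CDDO-Im in wild type. Without Nrf2, Creld2 read 10.42, 10.37 and 10.15 with vehicle and 8.11, 7.71 and 8.0 with CDDO-Im. The treated wild type arrays were nearly equal, and no treated array overlapped the vehicle arrays. Creld2 fell in wild type (-2.18 ± 0.46, adjusted p = 0.0382; -2.95 ± 0.12 without vehicle replicate 3) and in Nrf2 null (-2.37 ± 0.46, adjusted p = 0.0158).

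The other 5 of this role were Hsp90b1 (Grp94, the HSP90 of the ER), Hspa13 (an HSP70 relative without its client-binding domain) and the J-domain co-chaperones Dnajb9, Dnajb11 and Dnajc3. Their differences ran from -1.89 (Dnajb11) to -1.15 (Hsp90b1) in Nrf2 null and from -1.59 (Dnajb11) to -0.31 (Dnajb9) in wild type. Dnajc3 passed in both genotypes on its chosen probe set alone. The other probe sets of Dnajc3 also read lower in both. Their adjusted p-values (limma, over all probe sets that name 1 gene) were at least 0.0766. Dnajb9 had the smallest difference of the role in wild type, where it read 11.21, 11.43 and 10.26 with vehicle and 10.24, 10.85 and 10.89 with CDDO-Im; its groups overlapped. Its difference there was -0.31 ± 0.26 (adjusted p = 0.708), and -0.66 ± 0.18, adjusted p = 0.0459, without vehicle replicate 3; its interaction was 1.02 ± 0.37 (adjusted p = 0.558).

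**Figure D4:**
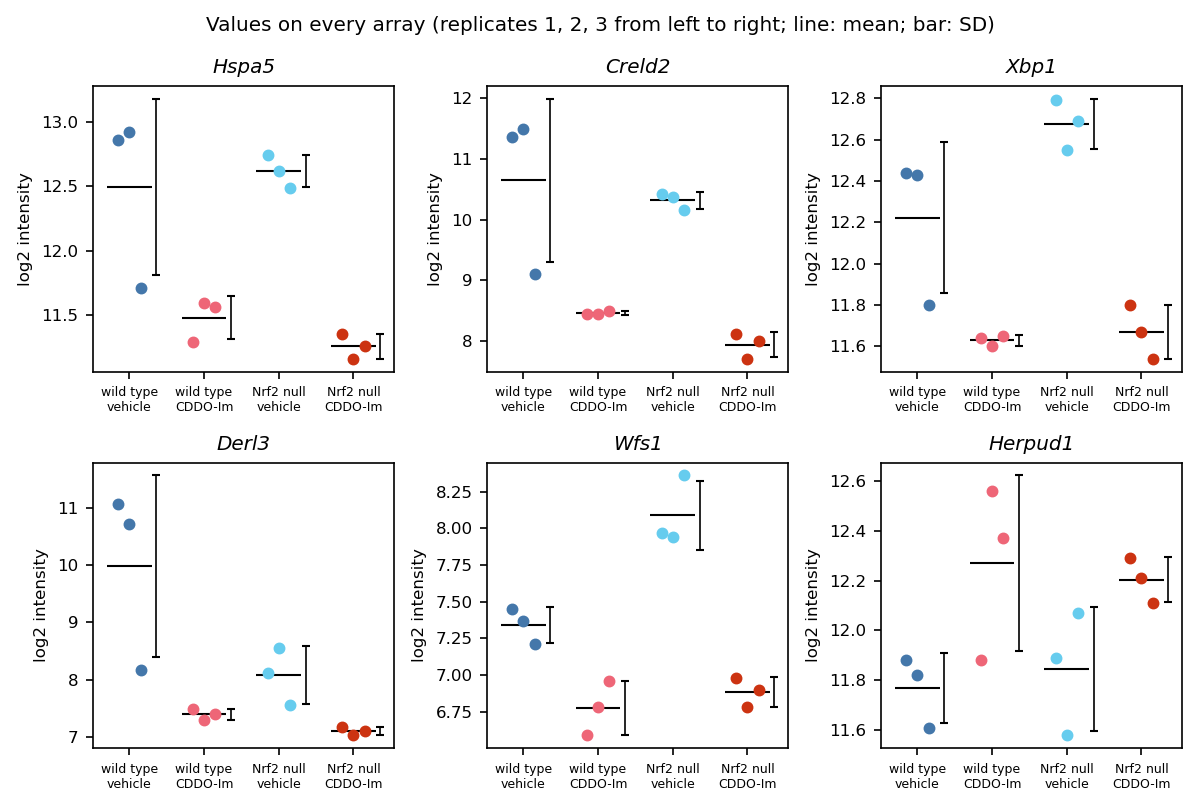
Log2 intensity of 6 genes on every array by group, with the mean (line) and SD (bar) over 3 arrays; each panel has its own vertical axis. Hspa5, Creld2 and Xbp1 are lower with CDDO-Im in both genotypes, Derl3 is highest on 2 wild type vehicle arrays, Wfs1 is highest in Nrf2 null with vehicle, and Herpud1 is not lower with CDDO-Im.

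The lectin chaperones hold newly glycosylated proteins while they fold. Calr (Entrez Gene 12317), the soluble lectin calreticulin, read 13.17, 13.09 and 12.64 in wild type with vehicle and 12.20, 12.21 and 12.31 with CDDO-Im. Without Nrf2, Calr read 12.97, 12.99 and 12.91 and then 12.31, 11.68 and 12.26. Treated and vehicle arrays did not overlap. Calr fell in wild type (-0.73 ± 0.16, adjusted p = 0.0474; -0.89 ± 0.15, adjusted p = 0.0033, without vehicle replicate 3) and in Nrf2 null (-0.87 ± 0.16, adjusted p = 0.0135). Canx (Entrez Gene 12330), calnexin, the membrane-bound lectin, read 11.46, 11.38 and 11.04 with vehicle and 10.92, 11.04 and 10.95 with CDDO-Im in wild type. Without Nrf2, Canx read 10.91, 11.11 and 11.17 and then 10.79, 10.67 and 10.85. The wild type groups touched at 11.04, and the Nrf2 null groups lay close without overlapping. Its differences of -0.32 ± 0.11 (adjusted p = 0.191) and -0.29 ± 0.11 (adjusted p = 0.159) did not pass; without vehicle replicate 3 it fell in wild type (-0.45 ± 0.10, adjusted p = 0.0131).

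The disulfide isomerases and thioredoxin-fold proteins form and exchange disulfide bonds in new proteins. Of 8, 3 fell in wild type (Pdia3, Pdia4 and Pdia6; 8 of 8 without vehicle replicate 3) and 5 in Nrf2 null (those with P4hb and Txndc11), and the medians were -0.67 and -0.83. Pdia3 (Entrez Gene 14827), which works with the lectins on glycoproteins, read 12.58, 12.62 and 11.73 in wild type with vehicle and 11.18, 11.21 and 11.26 with CDDO-Im. Without Nrf2, Pdia3 read 11.96, 12.11 and 11.81 and then 10.91, 10.69 and 10.94. The treated arrays were all lower. Pdia3 fell in wild type (-1.10 ± 0.19, adjusted p = 0.0137; -1.39 ± 0.10, adjusted p = 6.78e-06, without vehicle replicate 3) and in Nrf2 null (-1.12 ± 0.19, adjusted p = 0.011).

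Pdia6 (Entrez Gene 71853), an isomerase that associates with BiP, read 11.92, 11.79 and 10.60 with vehicle and 10.04, 9.94 and 9.97 with CDDO-Im in wild type. Without Nrf2, Pdia6 read 11.06, 11.46 and 11.29 and then 9.97, 9.47 and 9.86. No group overlapped its control. Pdia6 fell in wild type (-1.46 ± 0.27, adjusted p = 0.022; -1.88 ± 0.14, adjusted p = 8.52e-06, without vehicle replicate 3) and in Nrf2 null (-1.50 ± 0.27, adjusted p = 0.0129). Txndc11 (Entrez Gene 106200), a membrane thioredoxin-fold protein, was dimmer and read 7.66, 7.83 and 7.26 in wild type with vehicle and 6.83, 7.10 and 7.06 with CDDO-Im. Without Nrf2, Txndc11 read 8.09, 8.23 and 8.17 and then 7.44, 6.81 and 7.02. The treated arrays lay lower in both genotypes, and all 3 Nrf2 null vehicle arrays lay above the wild type vehicle ones. Txndc11 fell in Nrf2 null (-1.07 ± 0.17, adjusted p = 0.00867), and its difference in wild type was -0.58 ± 0.17 (adjusted p = 0.106); without vehicle replicate 3 it fell there too (-0.74 ± 0.16, adjusted p = 0.0114). The 3 that passed in neither genotype with all arrays were Erp44 (thiol-mediated retention), Erp29 and Txndc5, with differences between -0.76 and -0.33.

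Of the prolyl isomerases, which turn proline bonds, Ppib fell in both genotypes and Fkbp11 in Nrf2 null. Ppib (Entrez Gene 19035), cyclophilin B, read 12.55, 12.59 and 11.89 in wild type with vehicle and 11.39, 11.26 and 11.41 with CDDO-Im. Without Nrf2, Ppib read 12.41, 12.53 and 12.46 and then 12.01, 11.58 and 11.51. All treated arrays were below all vehicle arrays. Ppib fell in wild type (-0.99 ± 0.17, adjusted p = 0.0137; -1.21 ± 0.13, adjusted p = 0.000118, without vehicle replicate 3) and in Nrf2 null (-0.76 ± 0.17, adjusted p = 0.026). Fkbp11 (Entrez Gene 66120), an isomerase of secretory tissues, read 9.67, 9.63 and 7.55 with vehicle and 7.71, 6.86 and 7.11 with CDDO-Im in wild type. Without Nrf2, Fkbp11 read 8.83, 9.35 and 9.12 and then 7.15, 7.07 and 6.74. The third wild type vehicle array fell among the treated ones, while the Nrf2 null groups lay well apart. Fkbp11 fell in Nrf2 null (-2.11 ± 0.45, 4.32-fold, adjusted p = 0.0212), and in wild type its difference was -1.73 ± 0.45 (adjusted p = 0.0821) with all arrays and -2.43 ± 0.22 (adjusted p = 3.33e-05) without that array. Both other probe sets of Fkbp11 differed by 0.03 and 0.01 in Nrf2 null, so its fall rests on 1 probe set. Fkbp2 differed by -0.46 ± 0.13 and -0.29 ± 0.13 and passed in neither genotype with all arrays; it fell in wild type without vehicle replicate 3 (-0.56 ± 0.13, adjusted p = 0.0207).

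Among the sensors and regulators, Wfs1 fell in both genotypes and Xbp1 in Nrf2 null, while for Ern1 and Atf6 the groups overlapped. Xbp1 (Entrez Gene 22433) encodes the transcription factor made from the mRNA that Ire1 splices; the array does not separate the spliced form. It read 12.44, 12.43 and 11.80 in wild type with vehicle and 11.64, 11.60 and 11.65 with CDDO-Im. Without Nrf2, Xbp1 read 12.79, 12.55 and 12.69 and then 11.80, 11.67 and 11.54. The treated arrays were lower in both genotypes, and the third wild type vehicle array lay just above them. Xbp1 fell in Nrf2 null (-1.01 ± 0.15, 2.01-fold, adjusted p = 0.00709); in wild type its difference was -0.59 ± 0.15 (adjusted p = 0.0713) with all arrays and -0.80 ± 0.10 (adjusted p = 0.00028) without that array.

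Ern1 (Entrez Gene 78943), which encodes Ire1, read 9.35, 9.75 and 8.96 in wild type with vehicle and 9.04, 9.68 and 9.23 with CDDO-Im. Without Nrf2, Ern1 read 8.55, 8.75 and 9.14 and then 8.56, 8.74 and 9.26. The groups overlapped in both genotypes. Its differences were -0.04 ± 0.24 (adjusted p = 0.977; -0.23 ± 0.24, adjusted p = 0.696, without vehicle replicate 3) and 0.04 ± 0.24 (adjusted p = 0.956). Atf6 (Entrez Gene 226641), the membrane-bound factor released by cleavage, read 8.37, 8.33 and 7.62 with vehicle and 7.99, 8.06 and 7.74 with CDDO-Im in wild type. Without Nrf2, Atf6 read 7.51, 7.68 and 7.68 and then 7.50, 7.48 and 7.71. These groups overlapped as well, and the differences were -0.18 ± 0.17 (adjusted p = 0.758) and -0.06 ± 0.17 (adjusted p = 0.908). Without vehicle replicate 3, Atf6 fell in wild type (-0.42 ± 0.11, adjusted p = 0.0425).

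Wfs1 (Entrez Gene 22393), a membrane protein that restrains Atf6, was the 1 gene called between the genotypes with all arrays. It read 7.45, 7.37 and 7.21 in wild type with vehicle and 6.59, 6.78 and 6.96 with CDDO-Im. Without Nrf2, Wfs1 read 7.97, 7.94 and 8.36 with vehicle and 6.98, 6.78 and 6.90 with CDDO-Im. All 3 Nrf2 null vehicle arrays lay above all wild type arrays, and the treated groups of the genotypes overlapped. Wfs1 fell in wild type (-0.57 ± 0.12, adjusted p = 0.0446; -0.64 ± 0.14, adjusted p = 0.0132, without vehicle replicate 3) and in Nrf2 null (-1.20 ± 0.12, adjusted p = 0.00368), and its interaction of 0.64 ± 0.18 did not pass (adjusted p = 0.363).

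The degradation genes differed among themselves. In wild type 1 of 7 fell (Derl3; 5 of 7 without vehicle replicate 3) and in Nrf2 null 1 of 7 (Syvn1; 5 of 7 without that array). Derl3 (Entrez Gene 70377), a member of the Derlin family that moves proteins out of the ER, read 11.06, 10.72 and 8.17 in wild type with vehicle and 7.49, 7.29 and 7.40 with CDDO-Im. Without Nrf2, Derl3 read 8.12, 8.56 and 7.56 and then 7.18, 7.03 and 7.11. Wild type vehicle replicates 1 and 2 stood far above every other array, and replicate 3 lay among the Nrf2 null vehicle arrays. Derl3 fell in wild type (-2.59 ± 0.56, 6.01-fold, adjusted p = 0.0427; -3.50 ± 0.22, adjusted p = 1.61e-06, without vehicle replicate 3), and its difference in Nrf2 null was -0.97 ± 0.56 (adjusted p = 0.392). The interaction was -1.61 ± 0.79 (adjusted p = 0.747) with all arrays and -2.52 ± 0.29 (adjusted p = 0.00195) without wild type vehicle replicate 3. In that fit the interaction was called negative for 0.055% and positive for 0.198% of all genes. Derl3 also fell there in Nrf2 null (adjusted p = 0.00828). The array left out was singled out on genes that include Derl3, so the lower p-value of the interaction follows from that choice.

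Syvn1 (Entrez Gene 74126), the ubiquitin ligase Hrd1, read 9.32, 9.63 and 8.23 with vehicle and 8.34, 8.67 and 8.46 with CDDO-Im in wild type. Without Nrf2, Syvn1 read 9.44, 9.35 and 9.62 and then 8.57, 7.91 and 8.62. The wild type groups overlapped through the third vehicle array, and the Nrf2 null groups did not. Syvn1 fell in Nrf2 null (-1.11 ± 0.30, adjusted p = 0.0496), close to the threshold, with -0.57 ± 0.30 in wild type (adjusted p = 0.45); without vehicle replicate 3 it fell there too (-0.98 ± 0.19, adjusted p = 0.00796). Edem1 (Entrez Gene 192193), which marks glycoproteins for disposal, read 10.36, 10.39 and 9.54 in wild type with vehicle and 9.38, 9.39 and 9.47 with CDDO-Im. Without Nrf2, Edem1 read 10.52, 10.10 and 10.46 and then 9.66, 9.45 and 9.78. The treated arrays were lower without overlap. Its differences of -0.68 ± 0.20 (adjusted p = 0.114) and -0.73 ± 0.20 (adjusted p = 0.0516) did not pass with all arrays and both did without wild type vehicle replicate 3 (-0.96 ± 0.13, adjusted p = 0.000644, in wild type; adjusted p = 0.00213 in Nrf2 null), whereas a second, slightly dimmer probe set differed by -1.15 (adjusted p = 0.0159, over all probe sets that name 1 gene) and -1.17 (adjusted p = 0.0124).

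Herpud1 (Entrez Gene 64209), a stress-induced scaffold of the degradation complex, read higher with the compound and is described after its values were seen. It read 11.88, 11.82 and 11.61 in wild type with vehicle and 11.88, 12.56 and 12.37 with CDDO-Im. Without Nrf2, Herpud1 read 11.89, 11.58 and 12.07 and then 12.29, 12.21 and 12.11. The treated arrays lay above the vehicle arrays in both genotypes, though 1 pair in wild type was equal to the second decimal. The differences of 0.50 ± 0.16 (adjusted p = 0.165) and 0.36 ± 0.16 (adjusted p = 0.258) did not pass, and a second probe set differed by 0.52 and 0.41. In wild type Herpud1 rose in 1 of the 12 fits that left out 1 array, that without CDDO-Im replicate 1 (0.70, adjusted p = 0.0421); without vehicle replicate 3 its difference was 0.42 ± 0.18 (adjusted p = 0.222). Sel1l (the partner of Hrd1), Derl1 and Derl2 differed by -0.65 to -0.21 and passed in neither genotype with all arrays; Sel1l and Derl1 fell in both, and Derl2 in neither, without wild type vehicle replicate 3.

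Of the translocation genes 8 of 8 fell in Nrf2 null, with differences between -1.44 and -1.07. In wild type 2 of 8 fell (Sec61a1 and Sec61b, subunits of the channel), and 8 of 8 without vehicle replicate 3. Ssr1 (Entrez Gene 107513), Ssr2 (Entrez Gene 66256) and Ssr3 (Entrez Gene 67437) encode subunits of the translocon-associated TRAP complex. Ssr1 read 11.20, 11.39 and 10.09 in wild type with vehicle and 9.82, 9.79 and 9.94 with CDDO-Im. Without Nrf2, Ssr1 read 11.30, 11.16 and 11.14 and then 9.85, 9.86 and 9.79. No treated array reached a vehicle array. Ssr1 fell in Nrf2 null (-1.37 ± 0.25, adjusted p = 0.0121), with -1.04 ± 0.25 in wild type (adjusted p = 0.0575; -1.44 ± 0.09, adjusted p = 1.61e-06, without vehicle replicate 3).

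Ssr2 read 9.38, 9.50 and 8.50 with vehicle and 8.56, 8.37 and 8.22 with CDDO-Im in wild type. Without Nrf2, Ssr2 read 9.55, 9.43 and 9.53 and then 8.22, 8.21 and 8.28. The third wild type vehicle array fell among the treated ones. Ssr2 fell in Nrf2 null (-1.27 ± 0.20, adjusted p = 0.00958), with -0.74 ± 0.20 in wild type (adjusted p = 0.0921); without vehicle replicate 3 it fell there too (-1.05 ± 0.10, adjusted p = 4.95e-05). Ssr3 read 11.82, 11.84 and 10.72 in wild type with vehicle and 10.50, 10.71 and 10.53 with CDDO-Im. Without Nrf2, Ssr3 read 11.79, 11.80 and 11.83 and then 10.38, 10.26 and 10.47. The Nrf2 null vehicle arrays were nearly equal and far above the treated ones. Ssr3 fell in Nrf2 null (-1.44 ± 0.23, adjusted p = 0.00958), with -0.88 ± 0.23 in wild type (adjusted p = 0.0818); without vehicle replicate 3 it fell there too (-1.25 ± 0.09, adjusted p = 5.05e-06). Spcs2 and Spcs3 (signal peptidase subunits) and Srprb (signal recognition particle receptor) fell in Nrf2 null (-1.07, -1.07 and -1.21) and differed by -0.73, -0.93 and -0.64 in wild type (-1.06, -1.29 and -1.08, all falls, without vehicle replicate 3).

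The COPII coat carries cargo out of the ER. Sec23b (Entrez Gene 27054) read 9.23, 9.49 and 8.58 in wild type with vehicle and 8.79, 8.76 and 8.71 with CDDO-Im. Without Nrf2, Sec23b read 10.18, 9.70 and 10.17 and then 8.93, 8.89 and 8.87. The Nrf2 null vehicle arrays stood above all others, and the wild type groups overlapped through the third vehicle array. Sec23b fell in Nrf2 null (-1.12 ± 0.19, adjusted p = 0.011), with -0.35 ± 0.19 in wild type (adjusted p = 0.487); without vehicle replicate 3 it fell there too (-0.61 ± 0.14, adjusted p = 0.0159). Sec24d (Entrez Gene 69608), a cargo-binding subunit, read 10.74, 10.74 and 9.81 with vehicle and 10.38, 10.30 and 10.26 with CDDO-Im in wild type. Without Nrf2, Sec24d read 10.58, 10.31 and 10.52 and then 9.88, 9.54 and 9.79. The wild type groups overlapped and the Nrf2 null groups did not. Its differences were -0.12 ± 0.20 (adjusted p = 0.888) and -0.73 ± 0.20 (adjusted p = 0.0569). Without wild type vehicle replicate 3, Sec24d fell in both (wild type -0.43 ± 0.11, adjusted p = 0.0356; Nrf2 null adjusted p = 0.000804).

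The genotypes were then compared under each treatment, on the same arrays as above. With vehicle 1 of 44 was higher in Nrf2 null (Wfs1, 0.75 ± 0.12, adjusted p = 0.0317, limma) and 0 lower, where 0.39% of all genes were called in either direction, and 8 of the 44 had an unadjusted p under 0.05. Without wild type vehicle replicate 3, Wfs1 (0.68) and Sec23b (0.65) were higher and Creld2 (-1.10), Pdia3 (-0.64), Pdia4 (-0.75), Atf6 (-0.73) and Derl3 (-2.81) lower, where 0.231% of all genes were higher and 0.973% lower. That array was the lowest of its group for all 44, so leaving it out lowers each of these differences. The median of the 44 was 0.09 with all arrays and -0.22 without it, and the lower calls depend on that choice. The Wfs1 call was lost without wild type vehicle replicate 1 (adjusted p = 0.0923) or 2 (0.0708), without Nrf2 null vehicle replicate 1 (0.101) or 2 (0.0581) and without Nrf2 null CDDO-Im replicate 2 (0.0524). With CDDO-Im 0 of the 44 were called in limma, where 1.45% of all genes were. Unadjusted, 2 had a p under 0.05 (Hyou1 and Sec24d). Without wild type vehicle replicate 3, Manf (-0.69), Creld2 (-0.52) and Sec24d (-0.58) were lower in Nrf2 null, where 1.43% of all genes were. The differences under CDDO-Im do not use that array. Leaving it out changed only the shared estimate of the spread and the adjusted p-values.

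The falls were set beside the promoter matches as a description. The 11 genes with an ERSE or ERSE-II match had a median of -1.16 in wild type, 7 of them falling, and the 24 with a window but no such match a median of -0.58, 6 falling. Without vehicle replicate 3 these were -1.51 with 10 of 11 falling and -0.82 with 22 of 24 falling. Of all genes 0.846% fell in wild type with all arrays and 4.84% without that array. It was the lowest of its group for all 44 genes, so leaving it out lowers every wild type difference. In Nrf2 null the medians were -1.15 (8 of 11 fell) and -1.07 (16 of 24 fell), where 2.32% of all genes fell. The range of the 11 ran from -2.59 (Derl3) to 0.50 (Herpud1) in wild type. The difference between the sets was not tested, and the genes share arrays.

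Probe sets other than those chosen mostly read the same way. Of the 44 genes 29 had more than 1 probe set, with 57 others in all, 7 of them below the array median on every array. Of the 50 brighter ones, 46 had the sign of the chosen probe set in wild type and 48 in Nrf2 null. In a limma fit over all probe sets that name 1 gene, 22 of the 50 fell in Nrf2 null and 8 in wild type. The share of all probe sets that fell in that fit is not given here. The chosen probe sets of Calr (adjusted p = 0.052) and Sec61a1 (0.0539) in wild type and of Syvn1 (0.0596) in Nrf2 null did not pass in it.

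Other genes of the same pathways were counted from lists by function. Of 79 listed, 77 were found; 5 fell in wild type and 0 rose, with a median of -0.29, and 25 fell and 1 rose in Nrf2 null, with a median of -0.30. Of all genes 0.846% fell in wild type, and in Nrf2 null 2.32% fell and 3.58% rose. Without wild type vehicle replicate 3, 38 fell in wild type, where 4.84% of all genes fell. In Nrf2 null 35 fell and 2 rose without that array, where 3.93% of all genes fell and 4.95% rose. Of the translocation and N-glycosylation list 3 of 19 fell in wild type and 10 of 19 in Nrf2 null (16 in each without that array, where 1 rose in Nrf2 null). Of the folding factors 2 of 14 and 4 of 14 fell, of the sensors and membrane-bound factors 0 and 2 of 8, of the degradation genes 0 and 3 of 12, and of the ER to Golgi genes 0 and 5 of 18, with Sar1b rising in Nrf2 null (0.63, adjusted p = 0.017).

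By smallest adjusted p in wild type these were Pdia5, an isomerase (-1.12 ± 0.15, adjusted p = 0.00228), Sec11c, a signal peptidase subunit (-1.45 ± 0.25, adjusted p = 0.0117), and Rpn1 (-1.33 ± 0.26, adjusted p = 0.0244) and Ddost (-1.19 ± 0.23, adjusted p = 0.0254) of the oligosaccharyltransferase. In Nrf2 null they were Rpn1 (-1.63 ± 0.26, adjusted p = 0.00943), Rpn2 of the same enzyme (-0.79 ± 0.13, adjusted p = 0.0109), Creb3l2, a membrane-bound transcription factor (-1.34 ± 0.23, adjusted p = 0.011), and Ddost (-1.25 ± 0.23, adjusted p = 0.0133). Rpn1 read 11.77, 11.88 and 10.60 in wild type with vehicle and 10.28, 10.01 and 9.98 with CDDO-Im, and vehicle replicate 3 was again the lowest vehicle array.

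Of the Perk branch of the response, 0 of 6 genes fell in wild type (1 at an unadjusted p under 0.05) and 1 of 6 in Nrf2 null. Of all genes 0.846% fell in wild type and 2.32% in Nrf2 null. Without wild type vehicle replicate 3, 3 of 6 fell in wild type (Eif2ak3, Ddit3 and Trib3) and 4 of 6 in Nrf2 null (Eif2ak3, Atf4, Ddit3 and Chac1). In that fit 4.84% of all genes fell in wild type and 3.93% in Nrf2 null. That array was singled out on the 44 genes. Eif2ak3, Ddit3 and Trib3 also read lower on it than on the other wild type vehicle arrays. The gene called with all arrays was Atf4, the transcription factor translated when Perk slows other synthesis, which read 10.47, 10.60 and 10.64 with vehicle and 10.07, 10.27 and 10.03 with CDDO-Im in Nrf2 null. It fell there (-0.45 ± 0.10, adjusted p = 0.0248) and differed by 0.07 ± 0.10 in wild type (adjusted p = 0.865); its interaction did not pass (adjusted p = 0.352). Ddit3, the stress-linked factor Chop, differed by -0.29 (adjusted p = 0.396) and -0.47 (adjusted p = 0.0702) and Eif2ak3 by -0.40 (adjusted p = 0.604) and -0.75 (adjusted p = 0.143) with all arrays. Without wild type vehicle replicate 3 the wild type values were -0.45 (adjusted p = 0.0395) for Ddit3 and -0.80 (adjusted p = 0.0115) for Eif2ak3.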

How the data were processed

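Total RNA of mouse liver was measured on 12 one-colour arrays, 3 in each of 4 groups taken from the labels. The authors deposited log2 intensities, made with RMA per the submitters' processing notes (version not given in the sources used here), and no further scaling was applied. Precision is set by 3 arrays a group. Of 45101 probe sets 64 were controls, 34945 named 1 gene, 932 several and 9160 none. The brightest single-gene probe set stood for each of 18193 genes, with no filter on dim genes.

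Using limma 3.58.1 (R 4.3.3, statmod 1.5.0), all 12 arrays entered 1 model of 4 group means, with a residual of 8 and a prior of 3.81 degrees of freedom. There were 5 comparisons: CDDO-Im against vehicle in each genotype, the genotypes under each treatment, and the interaction (wild type effect minus Nrf2 null effect). Calls needed an adjusted p under 0.05 (Benjamini-Hochberg over all genes, two-sided); differences are log2 with the model's standard error. On simulated data, with 100 genes changed by 1 log2 unit and 100 by 2 in wild type among 18193, the fit recovered 95% and 100%, with 6 false of 201 calls. The simulated noise was independent between genes, with no shift shared by the genes of an array. The genes described here did share such a shift on wild type vehicle replicate 3, so these rates do not carry over to them.

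Values on every array were given for genes with the smallest adjusted p in each role (3, or 2 in roles of at most 4). They were also given for Hspa5, Xbp1, Atf6 and Ern1, and for genes called between genotypes. Creld2 and Herpud1 were added after their values were seen. So were Dnajb9, with values for wild type alone, and Atf4, with values for Nrf2 null alone. Sar1b, Ddit3, Eif2ak3, Trib3, Chac1 and the markers that changed were also added then, by name or difference only. Of the other pathway genes the 4 with the smallest adjusted p in each CDDO-Im comparison were named. The members and lists were chosen with earlier results of these data known. Replicate numbers were checked for pairing, and the alternatives were another scaling, another choice of probe set, a filter, fewer arrays, array weights, a replicate block and a stricter threshold. Promoter letters come from RefSeq (GRCm38.p6); protein sequences were not used here.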

Additional observations from a re-analysis of the deposited data

How the results depend on the processing

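Of the genes called in wild type, 16 with all arrays, the count was 7 with each array centred on its median, 0 with the compared arrays alone (limma; with all arrays 37 had an unadjusted p under 0.05), 37 with array weights, 1 at an adjusted p under 0.01, 39 without both arrays that carried acinar transcripts, and 1 to 41 with 1 array left out. In Nrf2 null, 30 with all arrays, it was 8 at an adjusted p under 0.01 and 8 to 37 with 1 array left out, and 29 to 36 under the other alternatives. Between genotypes with vehicle, 1 with all arrays, it was 0 when centred, with the compared arrays alone or at the stricter threshold, 8 with array weights, 6 without both acinar arrays and 0 to 7 with 1 array left out. With CDDO-Im, 0 with all arrays, it was 3 with the compared arrays alone, 3 without both acinar arrays and 0 to 3 with 1 array left out; for the interaction, 0 with all arrays, it was 1 without both acinar arrays and 0 to 1. The cause was not tested, beyond the fewer arrays of some fits. In the fit with array weights, wild type vehicle replicate 1 had a weight of 3.78 and replicate 3 one of 0.452. That fit therefore leaned away from replicate 3, as did those that left it out. These counts, and those with 1 array left out given above, are of the 44 genes alone. The share of all genes called changes between fits too: 0.846% fell in wild type with all arrays and 4.84% without vehicle replicate 3. The counts therefore do not show how much of a change is particular to the 44 genes. Direction turned for Ern1 in wild type (0.10 with the mean of its probe sets, and -0.23 to 0.17 with 1 array left out) and in Nrf2 null (-0.16 to 0.21 with 1 array left out). It also turned for Sec24d in wild type (-0.43 to 0.03 with 1 array left out, the lowest being the fall without vehicle replicate 3). With the replicate block the counts were 13 in wild type, 29 in Nrf2 null, 1 and 0 between genotypes and 0 for the interaction; not every pair of samples with the same number deviated together (correlations of -0.01, 0.25 and 0.19 in wild type and 0.07, 0.07 and 0.28 in Nrf2 null), so the numbers were not taken as pairs.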
